A study of Sus scrofa with 8 samples.

Results

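The transmembrane mucins considered here are MUC1, MUC4, MUC13, MUC15, MUC16 and MUC20, listed as membrane-bound mucins of gut, urothelium and mesothelium. Members were the rows of the count files whose pig Ensembl gene ID is paired with one of these 6 symbols. This held for 2 of the 6, MUC13 (ENSSSCG00000011862) and MUC15 (ENSSSCG00000013340), among 31907 genes in all. MUC1, MUC4, MUC16 and MUC20 were not matched to a row and were not analysed here. The pairing gave a symbol to 15029 of the 31907 genes. Whether the unmatched mucins lie among the unnamed rows was not determined, so nothing is said here of their expression.

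The study built urinary reservoirs (neobladders) in pigs from ileum and asked whether the animal's own peritoneum can take the place of the ileal mucosa. Its 4 groups, with 2 messenger RNA libraries each, were the neobladder mucosa of the experimental animals (MN-Exp), the neobladder mucosa of the control animals (MN-Ctrl), normal peritoneum (NP) and the mucosa of normal bladder (MNB). All came from Guizhou minipigs aged 8 months. The labels state neither the lining of the control reservoir, nor the time since surgery, nor whether the 2 libraries of a group came from separate animals, so the tests measured the spread between these libraries only.

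Transmembrane mucins are anchored in the cell membrane, carry a long extracellular stretch covered with O-linked sugars, and end in a short cytoplasmic tail. Together they form the glycocalyx on the apical face of epithelia, which hinders the attachment of microbes, and several of them signal through the tail after the outer part has been shed. MUC13 is a mucin of the apical surface of gut epithelium, with epidermal growth factor-like domains next to the membrane. MUC15 was first described from the bovine milk fat globule membrane.

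Libraries held 7939291 to 11884868 counts. Levels are given in CPM, the usual unit of a gene's counts relative to its library's total, after trimmed-mean (TMM) scaling between libraries. On this scale 3 counts equal 0.224 to 0.562 CPM. The tissues were set against lists of cell type markers. The 11 urothelium genes summed to 5380 and 9670 CPM in MN-Exp and 11300 and 10100 CPM in MNB. They summed to 604 and 374 CPM in MN-Ctrl and 559 and 1000 CPM in NP. In MN-Ctrl the largest part was ELF3, at 481 and 187 CPM, with UPK3A at 40.5 and 103 CPM. In NP most of the sum was UPK1B, at 308 and 571 CPM, and KRT7, at 158 and 359 CPM. UPK2 stood at 1.96 and 5.62 CPM in MN-Ctrl and 1.12 and 0.8 CPM in NP. The 11 enterocyte genes summed to 886 and 751 CPM in MN-Exp, 44900 and 165000 CPM in MN-Ctrl, 102 and 135 CPM in NP, and 408 and 479 CPM in MNB. In MN-Ctrl most of the enterocyte sum was FABP6, at 31300 and 157000 CPM. In MN-Exp most of it was LGALS4, at 816 and 688 CPM, and 1 and 3 of the 11 genes were at 0, CDX2 in both libraries. The part of these cell types in the results below was not tested. The 8 mesothelium genes with an ID summed to 1590 and 2030 CPM in MN-Exp, 6680 and 5160 CPM in MN-Ctrl, 1160 and 2500 CPM in NP, and 2450 and 1780 CPM in MNB, most of it the keratin KRT8, which other epithelia share. Within the list, WT1 stood at 27.7 and 25.2 CPM in NP and at most at 0.187 CPM elsewhere. BNC1 stood at 2.75 and 4.89 CPM in NP and at most at 0.0846 CPM elsewhere. KRT18 was lowest in NP, at 3.05 and 1.51 CPM, and calretinin (CALB2) was at 0 in all 8 libraries. ALDH1A2 stood at 139 and 129 CPM in NP, 49.9 and 41.3 CPM in MN-Exp, and 31.3 and 34.4 CPM in MNB. In MN-Ctrl it stood at 0.979 and 0.749 CPM. HAS1 had 4.4 and 5 CPM in MN-Exp, 3.97 and 2.4 CPM in NP, 10.3 and 4.85 CPM in MNB, and at most 0.109 CPM in MN-Ctrl. PDPN ran from 9.79 CPM in MN-Ctrl to 70 CPM in NP. In bulk tissue, fewer cells of a type and less RNA per cell cannot be told apart.

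Among the 4 tissues, MUC13 was highest in control neobladder. It was 28.2-fold lower in experimental than in control neobladder mucosa, was close to the detection limit in normal bladder, and had no count in peritoneum. The gene lies on chromosome 13 of Sscrofa11.1, from 135416709 to 135446337 in the RefSeq annotation, between HEG1 and ITGB5.

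MUC13 had 31 and 9 counts in the MN-Exp libraries, or 2.62 and 0.834 CPM. It had 566 and 199 counts in the MN-Ctrl libraries, or 61.6 and 37.3 CPM. Both NP libraries had 0 counts, and the MNB libraries had 5 and 1 counts, or 0.403 and 0.0746 CPM. Both control neobladder libraries stood far above the other 6, both experimental libraries stood above all bladder and peritoneum libraries, and no group overlapped another. Group means were 1.73 ± 1.26 CPM in MN-Exp, 49.4 ± 17.2 CPM in MN-Ctrl, 0 in NP and 0.239 ± 0.233 CPM in MNB (SD, n = 2 each).

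The 2 experimental libraries differed from each other 3.14-fold. Their exact Poisson 95% intervals, which cover counting error only, ran from 1.78 to 3.72 CPM in replicate 1 and from 0.381 to 1.58 CPM in replicate 2, without overlap. The control libraries differed 1.65-fold, with intervals of 56.6 to 66.9 CPM and 32.3 to 42.8 CPM. In bladder the interval of replicate 2, 0.00189 to 0.416 CPM, reached into that of replicate 1, 0.131 to 0.942 CPM. Between groups, the intervals of MN-Exp replicate 2, with 9 counts, and MNB replicate 1, with 5 counts, overlapped. The upper limits of the NP libraries, 0.375 and 0.328 CPM, reached into both bladder intervals. For peritoneum, 3 counts over both libraries correspond to 0.142 CPM, the level set as a floor for its 0 counts.

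**Figure D1:**
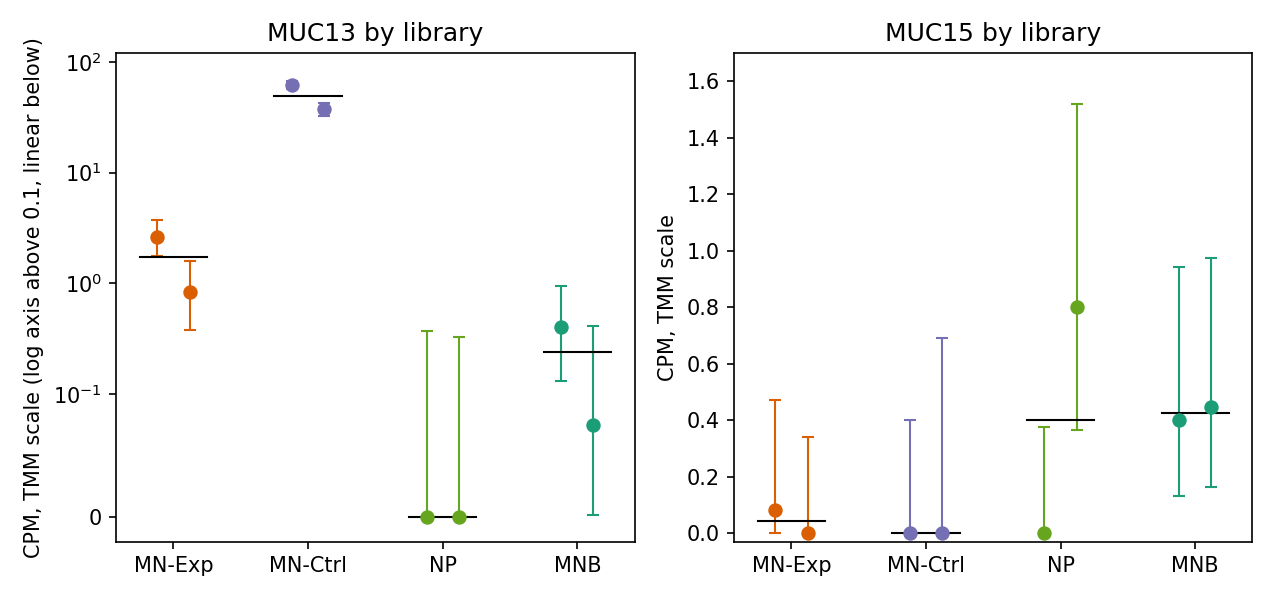
Level of MUC13 (left) and MUC15 (right) in each of the 8 libraries, in CPM on the TMM scale, with exact Poisson 95% intervals of the counts as bars and the group mean as a black line. MUC13 spans 0 to 61.6 CPM with MN-Ctrl on top, while MUC15 stays at or below 0.8 CPM in every library.

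Each comparison was tested with edgeR's quasi-likelihood test over 16549 genes, with Benjamini-Hochberg adjustment. MUC13 entered the test because 3 libraries, both of MN-Ctrl and 1 of MN-Exp, exceeded the filter's 0.954 CPM, a level set on unscaled library totals. A gene that passes through the group in which it is high is prone to differ from the others, so the calls describe MUC13 alone. The same limit holds for listed genes below that passed only through the group in which they were high. In MN-Exp against MN-Ctrl the log2 fold change was -4.82 (SE 0.69, 95% interval -6.36 to -3.28, adjusted p = 0.0013). In that comparison 11.3% of all tested genes were called lower, 21.7% were called in either direction, and 26.3% had both experimental libraries below both control libraries. Of the 7669 genes with a negative log2 fold change, MUC13 ranked 495th from the most negative.

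Against normal bladder, MUC13 in experimental mucosa was 7.12-fold higher by the fit, a log2 fold change of 2.83 (SE 0.83, 95% interval 0.96 to 4.70). The unadjusted p was 0.00738 and the adjusted p = 0.353, so the gene was not called in a comparison where edgeR called 0.0967% of genes and 1326 genes had an unadjusted p under 0.05. DESeq2 gave an adjusted p = 0.0692 for it, and edgeR without the low-count filter an adjusted p = 0.011. The 40 counts in MN-Exp and 6 counts in MNB gave a ratio of 7.60 after scaling, with a counting interval of 3.20 to 21.9. In 24.8% of tested genes both MN-Exp libraries stood above both MNB libraries.

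Against peritoneum, where the gene was at 0, folds set a group's pooled counts against a floor of 3 counts over both NP libraries. The pooled levels were 1.77 CPM in MN-Exp and 52.6 CPM in MN-Ctrl. These folds leave out counting error and the spread between libraries, so they are no strict bounds. The pooled counting intervals were 1.26 to 2.41 CPM in MN-Exp and 0 to 0.175 CPM in NP. By this floor MUC13 was 12.4-fold higher in experimental mucosa (edgeR adjusted p = 0.00712). In that comparison 12.4% of genes were called higher and 35.5% had both MN-Exp libraries above both NP libraries. In control mucosa it was 370-fold higher than in peritoneum by the same floor (adjusted p = 9.41e-05). There 21.6% of genes were called higher and 32.2% were without overlap in that direction. Control mucosa exceeded normal bladder with a log2 fold change of 7.65 (SE 0.83, adjusted p = 0.000308), with 11.2% of genes called higher and 27.5% without overlap in that direction. Between peritoneum and bladder, with 0 and 6 counts, MUC13 was not called by edgeR (adjusted p = 0.144, 95% interval of the log2 fold change -8.76 to 0.02). In that comparison 21.1% of genes were called and 35.3% had both NP libraries below both MNB libraries. From high to low the order of levels was MN-Ctrl, MN-Exp, MNB and NP. The step between MN-Exp and MN-Ctrl passed the test, while those between MN-Exp and MNB and between NP and MNB did not. The 6 comparisons share libraries and are not independent of each other.

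**Figure D2:**
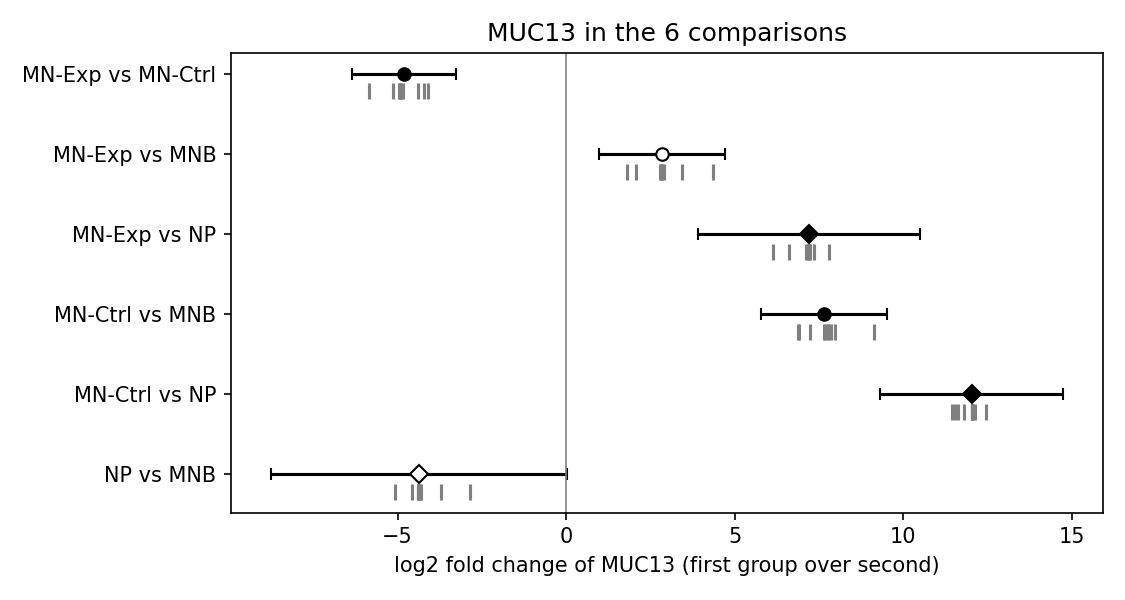
Log2 fold change of MUC13 in the 6 comparisons (first group over second) with its 95% interval from edgeR, and the values under the alternative settings as grey ticks. Filled symbols passed an adjusted p of 0.05, and diamonds mark comparisons with NP, where MUC13 had 0 counts and the fitted value is no bound. Every interval except that of NP against MNB lies on 1 side of 0.

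MUC13 was also read against epithelial genes of the same library, a ratio that needs no scaling between libraries and was added after the data had been seen. Relative to EPCAM, an adhesion molecule of most epithelia, it had 5.02 and 1.94 counts per 1000 EPCAM counts in MN-Exp, against 82.6 and 94.6 in MN-Ctrl. The highest experimental ratio was thus 16.5-fold below the lowest control ratio. The ratio to CDH1 (E-cadherin) was at least 26.2-fold lower between the nearest libraries, that to the keratins KRT18 and KRT8 12.3-fold and 4.05-fold lower, and that to the galectin LGALS4 2.47-fold lower. EPCAM itself stood at 523 and 431 CPM in MN-Exp and at 745 and 394 CPM in MN-Ctrl, which overlap.

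Set against 4 other gut genes the order turned round. Per 1000 counts of villin (VIL1), the actin bundler of the brush border, MUC13 had 169 and 375 counts in MN-Exp against 25.4 and 44.9 in MN-Ctrl. Per 1000 counts of CDH17, the intestinal cadherin, it had 756 and 375 counts in MN-Exp against 71.5 and 168 in MN-Ctrl. The nearest libraries lay 3.76-fold apart for VIL1, 2.23-fold for CDH17, 4.13-fold for the goblet cell mucin MUC2 and 1.15-fold for the brush border peptidase ANPEP, each higher in MN-Exp. For HNF4A, a nuclear receptor of gut epithelium, the ratios were 337 and 102 in MN-Exp and 244 and 288 in MN-Ctrl, which overlap. These ratios rest on 31 and 9 counts of MUC13 in MN-Exp, and their differences were described and not tested. Some divisors were also low there, with 7 and 17 counts of MUC2, 41 and 24 of CDH17, and 183 and 24 of VIL1. MUC2 stood at 0.592 and 1.57 CPM in MN-Exp and at 1.78 and 0.299 CPM in MNB, so its ratio divides by a value near the detection limit. The intestinal factor CDX2 and the secretory lineage factor ATOH1 were at 0 in both MN-Exp libraries, in which MUC13 was detected. Other genes of their marker lists were present there. The 8 goblet and secretory genes with an ID summed to 2050 and 670 CPM in MN-Exp, 24400 and 58500 CPM in MN-Ctrl, and 1190 and 1150 CPM in MNB. Of these 8, 1 and 2 were at 0 in MN-Exp, while AGR2 stood at 1230 and 546 CPM and CLCA1 at 80.4 and 11.3 CPM.

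**Figure D3:**
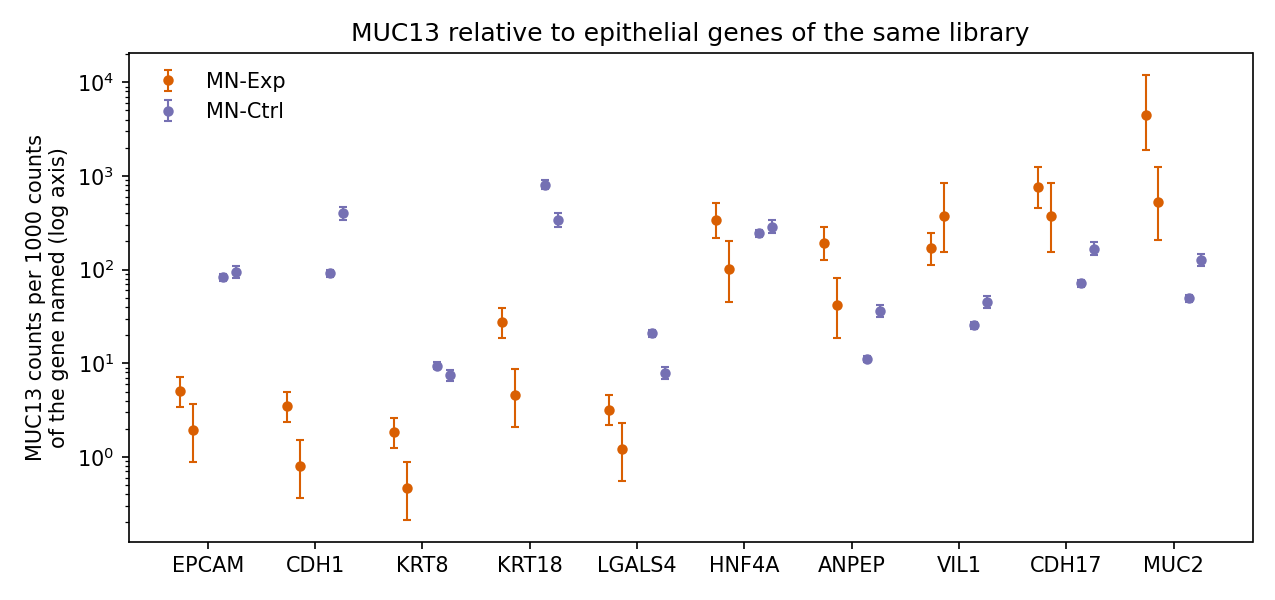
MUC13 counts per 1000 counts of each of 10 epithelial genes in the 2 MN-Exp and 2 MN-Ctrl libraries on a log axis, with exact binomial 95% intervals of the counts. For EPCAM, CDH1, KRT8, KRT18 and LGALS4 the MN-Exp points lie below the MN-Ctrl points, for HNF4A they overlap, and for ANPEP, VIL1, CDH17 and MUC2 they lie above.

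The genes most like MUC13 were those with the smallest root mean square difference from it in log2 CPM over the 8 libraries, after centring each gene on its mean. Among 12435 genes with a symbol, at a median difference of 3.20, the nearest were MYO15B at 0.30, MALRD1 at 0.54 and DPEP1 at 0.73. MYO15B, an unconventional myosin, had 3.30 and 1.30 CPM in MN-Exp, 60.7 and 47.4 CPM in MN-Ctrl, 0 in both NP libraries and 0.242 and 0.149 CPM in MNB. MALRD1, which in mouse intestine bears on bile acid feedback, had 0.846 and 0.556 CPM in MN-Exp, 87.4 and 38.4 CPM in MN-Ctrl, 0 in NP and 0.403 and 0.0746 CPM in MNB. DPEP1, a membrane dipeptidase, had 26 and 7.78 CPM in MN-Exp and 504 and 856 CPM in MN-Ctrl, with 1.60 to 3.58 CPM in the other libraries. Like MUC13, these genes were high in both control libraries and low in both experimental ones. The likeness is a description over 8 libraries in 4 groups.

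**Figure D4:**
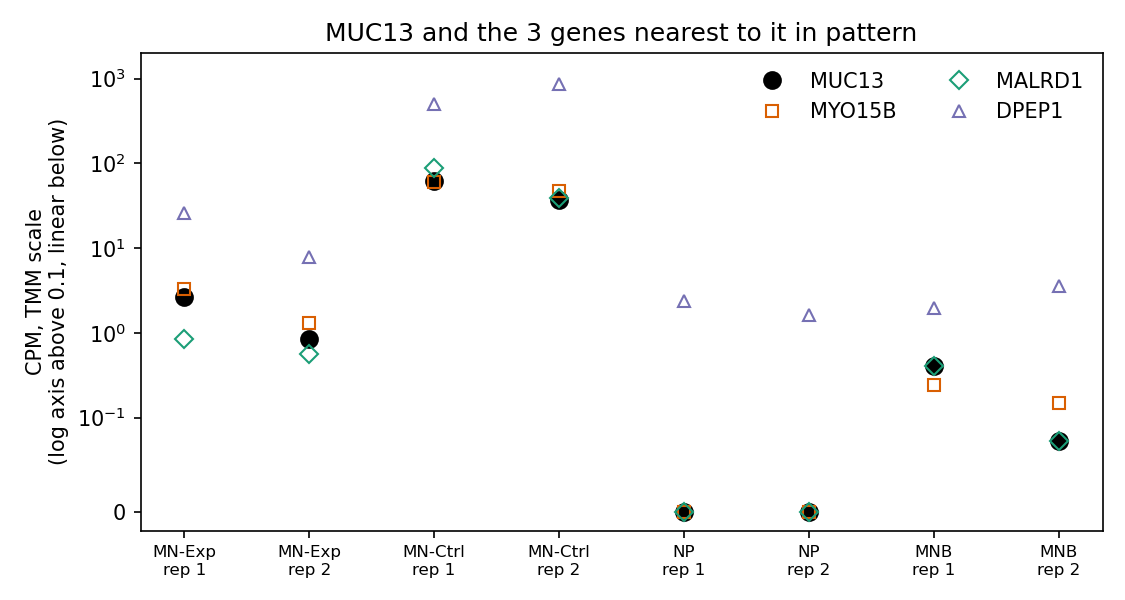
Level of MUC13 and of the 3 genes nearest to it in pattern, in CPM on the TMM scale, in each of the 8 libraries. MYO15B and MALRD1 nearly coincide with MUC13 in most libraries, while DPEP1 runs parallel at a higher level, from 1.6 to 856 CPM.

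The genomic neighbours of MUC13 did not share its pattern. HEG1, a membrane protein with a mucin-like ectodomain, stood at 14.4 and 15.7 CPM in MN-Exp against 8.16 and 8.80 CPM in MN-Ctrl (adjusted p = 0.107), and at 94.3 and 111 CPM in NP. ITGB5, an integrin subunit, rose to 23 and 21.8 CPM in MN-Exp, against 5.55 and 6.37 CPM in MN-Ctrl (log2 fold change 1.91, adjusted p = 0.00831).

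MUC15 was near the detection limit throughout. It had 1 and 0 counts in the MN-Exp libraries, 0 in both MN-Ctrl libraries, 0 and 9 in the NP libraries, and 5 and 6 in the MNB libraries. These equal 0.0846 and 0 CPM in MN-Exp, 0 CPM in MN-Ctrl, 0 and 0.8 CPM in NP, and 0.403 and 0.448 CPM in MNB. Only normal bladder had counts in both libraries. The peritoneum library with 9 counts had a Poisson interval of 0.366 to 1.52 CPM, which just touched the upper limit of 0.375 CPM of the other. The gene had 21 counts in all, exceeded 0.954 CPM on library totals in 1 library, and was not tested.

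Experimental neobladder held 1 count of MUC15 and bladder 11. After scaling, the ratio of MN-Exp to MNB was 0.104 with a counting interval of 0.00241 to 0.713, which does not cover the spread between libraries. Without the low-count filter, edgeR gave a log2 fold change of -3.01 (SE 2.50, adjusted p = 0.982) for that comparison. Against MN-Ctrl, where 3 counts over both libraries equal 0.206 CPM, no fold is given, since both groups were at or under 3 counts. In control neobladder MUC15 was 2.07-fold lower than in bladder by the same floor, on pooled counts (edgeR adjusted p = 0.350 without the filter). This fold is no strict bound, since the pooled counting intervals overlapped, at 0.213 to 0.763 CPM in MNB and 0 to 0.254 CPM in MN-Ctrl. Across the 6 comparisons without the filter, its lowest adjusted p was 0.291, so differences in MUC15 were not detectable at this depth.

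MUC15 lies on chromosome 2 of Sscrofa11.1, from 33685075 to 33699492, inside the span of ANO3, which runs from 33618740 to 34048973. The strand setting of the counting was not given in the sources used here, and whether reads of ANO3 entered the counts of MUC15 was not tested. ANO3, a member of the anoctamin family of membrane proteins, had 1.18 and 0.278 CPM in MN-Exp, 0.979 and 1.5 CPM in MN-Ctrl, 1.73 and 3.73 CPM in NP, and 2.58 and 2.01 CPM in MNB. SLC5A12, a monocarboxylate transporter gene at lower coordinates, 71526 bases from MUC15, stood at 0.423 and 0 CPM in MN-Exp against 354 and 253 CPM in MN-Ctrl (log2 fold change -10.36, adjusted p = 9.39e-05), so MUC15 at 0 in MN-Ctrl sat beside a gene that was high there.

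The sugars of transmembrane mucins are built by the enzymes of mucin-type O-glycosylation. Of 32 such genes listed, 25 were tested, and in experimental against control mucosa 4 rose and 6 fell, with a median log2 fold change of -0.03 against 0.11 over all genes. With library totals alone as scaling, 5 were higher and 1 lower, and the median of all genes moved to 0.89. Without MN-Exp replicate 2 the counts were 3 and 1, where 1396 in place of 3584 genes were called in all. Among all tested genes, 10.4% were called higher and 11.3% lower. Against peritoneum 8 of the 25 were higher and 3 lower in MN-Exp, where 12.4% of all genes were called higher and 11.8% lower, and on library totals alone 5 were higher and 2 lower. Without any 1 of the 4 libraries of that comparison, 6 or 7 of the list were called in place of 11, and 1762 to 2394 genes in all in place of 3998.

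Among the enzymes named here, 3 rose and 1 fell. B3GNT3, which adds N-acetylglucosamine to extend core 1 O-glycans, stood at 264 ± 16.7 CPM in MN-Exp and 19.8 ± 5.23 CPM in MN-Ctrl (log2 fold change 3.73, SE 0.40, adjusted p = 0.000173). ST6GALNAC1, the sialyltransferase that makes the sialyl-Tn antigen, stood at 1.23 ± 0.296 CPM in MN-Exp and 150 ± 75.4 CPM in MN-Ctrl (log2 fold change -6.91, SE 0.99, adjusted p = 0.000935). Its relative ST6GALNAC2 had 16.9 CPM in MN-Exp against 2.54 ± 0.411 CPM in MN-Ctrl (adjusted p = 0.00205). B3GNT7, another N-acetylglucosamine transferase, had 2.33 ± 1.03 CPM in MN-Exp and 0 counts in MN-Ctrl. On pooled counts it was 11.1-fold above a floor of 3 counts over both MN-Ctrl libraries. All 4 genes kept their direction and call in each of 10 alternative settings.

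**Figure D5:**
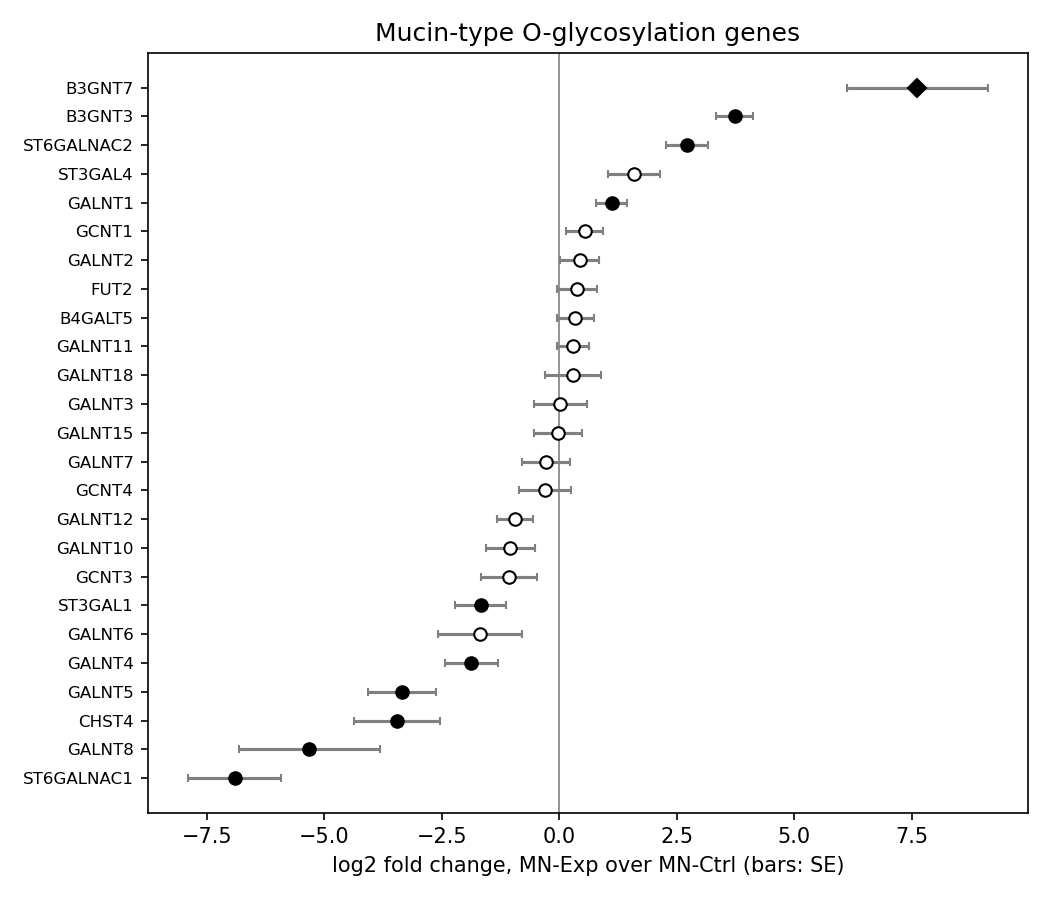
Log2 fold change of the 25 tested mucin-type O-glycosylation genes in MN-Exp over MN-Ctrl, with SE as bars. Filled symbols passed an adjusted p of 0.05, 4 of them higher and 6 lower, and the diamond marks B3GNT7, which had 0 counts in MN-Ctrl, so that its fitted value is no bound.

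Among 15 tested partners and anchors of transmembrane mucins, 2 rose and none fell in experimental against control mucosa (median log2 fold change 0.39, against 0.11 over all genes). This lies near the shares of all tested genes, of which 10.4% were called higher and 11.3% lower. They were receptor tyrosine kinases: MET, to which MUC20 binds in human cells, at 40.2 ± 2.65 CPM in MN-Exp and 5.49 ± 4.85 CPM in MN-Ctrl (adjusted p = 0.00869), and EGFR at 94.6 ± 17.3 CPM against 17.6 ± 12.2 CPM (adjusted p = 0.0107, and adjusted p = 0.0648 without MN-Exp replicate 2). ERBB3, which had the highest mean of the list over all 8 libraries, had 902 ± 86.3 CPM in MN-Exp and 3750 ± 3860 CPM in MN-Ctrl (adjusted p = 0.0774). Without MN-Ctrl replicate 1, 8 of the 15 were higher and 3 lower, and without MN-Exp replicate 2, 1 was higher and none lower. The calls over all genes moved the same way, to 6358 without MN-Ctrl replicate 1 and 1396 without MN-Exp replicate 2, against 3584 with all libraries.

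Of 9 tested proteases that shed or process membrane proteins at the mucosal surface, 2 rose and 1 fell, where 10.4% of all tested genes were called higher and 11.3% lower. Meprin beta (MEP1B), which releases mucin from the gut surface in mouse, had 0.423 ± 0.598 CPM in MN-Exp against 515 ± 249 CPM in MN-Ctrl (log2 fold change -10.17, adjusted p = 1e-04). MEP1B stood at most at 0.846 CPM outside MN-Ctrl, so it passed the low-count filter through MN-Ctrl, where it was high. Matrilysin (MMP7) rose, with 521 and 15.2 CPM in the MN-Exp libraries against 1.74 and 2.06 CPM in MN-Ctrl (adjusted p = 0.00592). Its call was lost without either control library, with an adjusted p of up to 0.257. ADAM9 had 84.7 ± 9.19 CPM in MN-Exp and 35.2 ± 9.57 CPM in MN-Ctrl (adjusted p = 0.0357), and lost its call without either experimental library and with the 2 groups alone (adjusted p up to 0.179). Without MN-Ctrl replicate 1, 4 of the 9 were higher and 1 lower, in the fit that called 6358 genes in all.

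Of 8 other tested membrane mucins and sialomucins, 2 fell and none rose, where 11.3% of all tested genes were called lower and 10.4% higher. Both were mucin-type or related protocadherins of the brush border. Outside MN-Ctrl, CDHR5 reached at most 0.242 CPM and CDHR2 at most 0.646 CPM, so both passed the low-count filter only through MN-Ctrl. Genes that enter this way are prone to be called lower, so the count of 2 is no result about the list. CDHR5 had 0 counts in MN-Exp and 89 ± 46.2 CPM in MN-Ctrl. On counts pooled over each group's libraries it was 736-fold lower, with a floor of 3 counts set for MN-Exp. CDHR2 had 0.173 ± 0.114 CPM in MN-Exp against 396 ± 413 CPM in MN-Ctrl (log2 fold change -11.04, adjusted p = 0.000167). CD34 and endomucin (EMCN), sialomucins of vessels, were not called, at 69.4 ± 1.96 against 17.6 ± 19.9 CPM (adjusted p = 0.078) and 31.9 ± 11.1 against 15.8 ± 2.23 CPM (adjusted p = 0.0801), MN-Exp first in both. The 4 endothelial markers with an ID summed to 378 and 341 CPM in MN-Exp against 176 and 96.8 CPM in MN-Ctrl, and their part in these values was not tested. On library totals alone, and without MN-Ctrl replicate 1 or 2, 2 of the 8 were higher and 2 lower. The 3 tested secreted mucin and trefoil genes, MUC2, TFF2 and TFF3, fell in experimental mucosa, in the same comparison with 11.3% of all genes called lower. TFF2 stood at most at 0.712 CPM outside MN-Ctrl and likewise passed the filter only through MN-Ctrl. TFF3 fell to 735 and 107 CPM, against 5120 and 17300 CPM in MN-Ctrl (adjusted p = 0.00792). The call of TFF3 was lost without MN-Exp replicate 2, without MN-Ctrl replicate 2 and with the 2 groups alone (adjusted p up to 0.109).

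Between experimental mucosa and normal bladder, edgeR called none of the members of these 5 lists, and 0.0967% of all tested genes. At an unadjusted p under 0.05 there were 4 O-glycosylation genes and 2 other membrane mucins or sialomucins, and DESeq2 called 2 O-glycosylation genes. Over all genes, 1326 of 16549 had an unadjusted p under 0.05, and DESeq2 called 249. Summed over the 27 O-glycosylation genes with an ID, levels were 1210 and 985 CPM in MN-Exp, 1720 and 921 CPM in MN-Ctrl, 470 and 515 CPM in NP, and 845 and 840 CPM in MNB.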

How the data were processed

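Messenger RNA was sequenced in 8 libraries. The authors deposited unscaled counts, 1 table a library, keyed by Ensembl gene ID. Per the submitters' processing notes, Trim Galore, HISAT2 and HTSeq 0.11.1 were used on Sscrofa11.1; settings and annotation release are not given in the sources used here. Smart-seq2 complementary DNA went into the libraries, per the labels.

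Symbols came from a table of gene IDs, which named 15029 of 31907 genes. Members and gene lists were chosen with earlier results of these data known. Counts were analysed with edgeR 4.0.16 in R 4.3.3: filterByExpr over the 4 groups kept 16549 genes, TMM factors (0.449 and 0.839 in MN-Ctrl, 1.088 to 1.239 elsewhere) scaled the libraries, and 1 robust quasi-likelihood fit over all groups (4 residual degrees of freedom, common dispersion 0.146) gave the 6 comparisons, called at an adjusted p under 0.05. SEs were derived from the F statistic. Poisson and binomial intervals are exact, at 95%, and cover counting error only. List genes eligible for naming were the 4 with the smallest p in MN-Exp against MN-Ctrl and the most abundant. All 6 mucins were to be described, and the nearest genes in pattern used a prior count of 2. Tests of MUC13 and of the named genes, and counts over all genes, were recomputed without the filter, with DESeq2 1.42.0, with edgeR on DESeq2 size factors, on library totals alone, with the 2 groups alone, with a replicate block, and without each library. List counts were recomputed on library totals and levels on library totals and DESeq2 size factors. List counts without each library, and MUC13 per 1000 counts of epithelial genes, were chosen after seeing the data. The promoter search was not run. The procedure was tested on simulated counts, with 200 genes changed in MN-Exp only and the dispersion 0.146 for every gene. Against MN-Ctrl it called 128 of the 193 changed genes tested and 3 unchanged ones. Against MNB, 11 of its 139 calls were unchanged genes. Spread that differs between genes or groups was not simulated, so the outcome does not vouch for the calls in the data.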

Additional observations from a re-analysis of the deposited data

How the results depend on the processing

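MUC13 kept its direction in each of the 57 combinations of comparison and alternative in which it was tested, and 55 of them lay on the same side of the threshold. Both exceptions came without the low-count filter, where 1 member, MUC13, was called in MN-Exp against MNB (adjusted p = 0.011) and in NP against MNB (adjusted p = 0.0478), and the cause was not tested. The log2 fold change of MUC13 in MN-Exp against MNB was 2.80 (SE 0.72) without the filter and 2.83 (SE 0.83) with it. In MN-Exp against MN-Ctrl its log2 fold change ran from -5.85 to -4.11 (adjusted p at most 0.0135), and without each library 1 member stayed called. In MN-Exp against MNB it ran from 1.79 to 4.34. With the 2 groups alone MUC13 fell under the filter in MN-Exp against MNB, MN-Exp against NP and NP against MNB and gave no value. Deviations of same-numbered libraries correlated at -0.08 to 0.091 over the tested genes. This shows no pairing by replicate number and cannot exclude one, since each group gave a single difference per gene. With replicate number as a block, MUC13 had a log2 fold change of -4.97 in MN-Exp against MN-Ctrl, and 3140 in place of 3584 genes were called there.

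Counts over all genes moved more. Under the other tools, scalings, filter, block and sample choices they ran from 2340 to 4610 in MN-Exp against MN-Ctrl, 5 to 453 in place of 16 against MNB, and 2900 to 6215 in place of 3998 against NP. For MN-Ctrl they ran from 2294 to 4815 in place of 3686 against MNB and 4928 to 7647 in place of 6993 against NP, and for NP against MNB from 2472 to 5803 in place of 3486. Without single libraries the ranges were 1396 to 6358, 3 to 7, 1762 to 2394, 1442 to 6485, 4671 to 8279 and 1343 to 1989, in the same order. With a prior count of 0.5, NR1I2 took the place of DPEP1 among the genes nearest to MUC13. Depth limits MUC15, with 21 counts in all.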
